A study of Rattus norvegicus with 8 samples.

Results

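The proximal tubule reclaims most of what the glomerulus filters, and 36 genes that carry out its uptake of sugars, amino acids, peptides, organic and inorganic anions, bicarbonate and filtered protein were followed in the rat kidney that remained after its partner had been removed. They were chosen by name and function and fall into 5 roles: sugar transport (4 genes), amino acid or peptide transport (13), anion transport (12), sodium-acid transport (3) and receptor-mediated endocytosis (4). Phosphate transporters and the organic-ion drug transporters were not included. Probes matched 31 of the 36 through their RefSeq accession, and all 31 were above background and tested among 19865 genes in all. Slc5a8, Slc6a19, Slc1a1, Slc26a6 and Slc16a1 had no matched probe and were not analysed here.

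Expression was measured on 1-colour Agilent arrays in the right kidney of rats of the inbred F344/NSlc strain, all male and 10 weeks old. In 4 nephrectomized rats this was the residual kidney, the other having been removed, and 4 sham rats had undergone a sham operation. Kidneys were taken 2 days after surgery according to the study's design text, but the samples' source labels name 2 days for nephrectomized and 1 day for sham rats, so surgery and a possible difference of a day cannot be told apart. All values are from whole kidney RNA, in which fewer proximal tubule cells and less RNA per cell cannot be told apart.

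In the proximal tubule, many apical carriers take up solutes together with sodium ions, driven by the gradient that the basolateral sodium pump maintains. Basolateral carriers pass the solutes on to the blood. Filtered proteins are bound by the receptors megalin and cubilin, taken into endosomes and broken down in lysosomes. The early segments hold carriers of high capacity and low affinity, and the late, straight segment holds carriers of high affinity that recover what is left.

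Of the gene probes, 60.5% to 65.5% were well above background in nephrectomized rats and 54.8% to 64.6% in sham rats, of which sham rat 1 was the lowest. The arrays lay on 2 slides, each with 2 nephrectomized and 2 sham rats. The second principal component (21.6% of the variance) placed sham rat 1 away from every other array. It also had the lowest value of the 4 sham rats in 20 of the 30 genes of the set with a value in every rat, where over all genes it was the lowest in 35.2%. Values without sham rat 1 are given after the 5 roles. Levels are log2 intensities relative to the 75th percentile of the same array, so that 0 is that percentile and a difference of 1 is a doubling, and levels of different genes cannot be compared, since each rests on its own probe.

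None of the 31 measured genes changed past an adjusted p of 0.05 (limma, Benjamini-Hochberg adjustment over all 19865 genes), while 3.59% of all genes did (2.57% higher and 1.02% lower after nephrectomy). At an unadjusted p under 0.05 there were 4 genes of the 31, or 12.9%, against 17.7% of all genes. These were Slc7a8 with a positive difference and Slc3a1, Slc27a2 and Slc2a5 with negative ones. The log2 fold changes, nephrectomized over sham, ran from -0.53 (Slc15a2) to 0.21 (Slc7a8), with a median of -0.08 against 0.00 for all genes tested, and 18 of the 31 were negative against 50.1% of all genes. On slide 1 the median was -0.08 and on slide 2 it was -0.07. Leaving out sham rat 1 gave a median of -0.13 and again no gene past the threshold.

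The 95% interval of the fold change, not adjusted for the number of genes, lay within 1.5-fold in either direction for 20 of the 31 genes (64.5%, against 82.4% of all genes), and within 2-fold for 30 of them (96.8%, against 94.4%). The exception was Slc15a2, whose interval ran from 0.455- to 1.05-fold. A missed threshold does not show that a gene stayed the same, and the intervals give the sizes that remain possible.

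**Figure D1:**
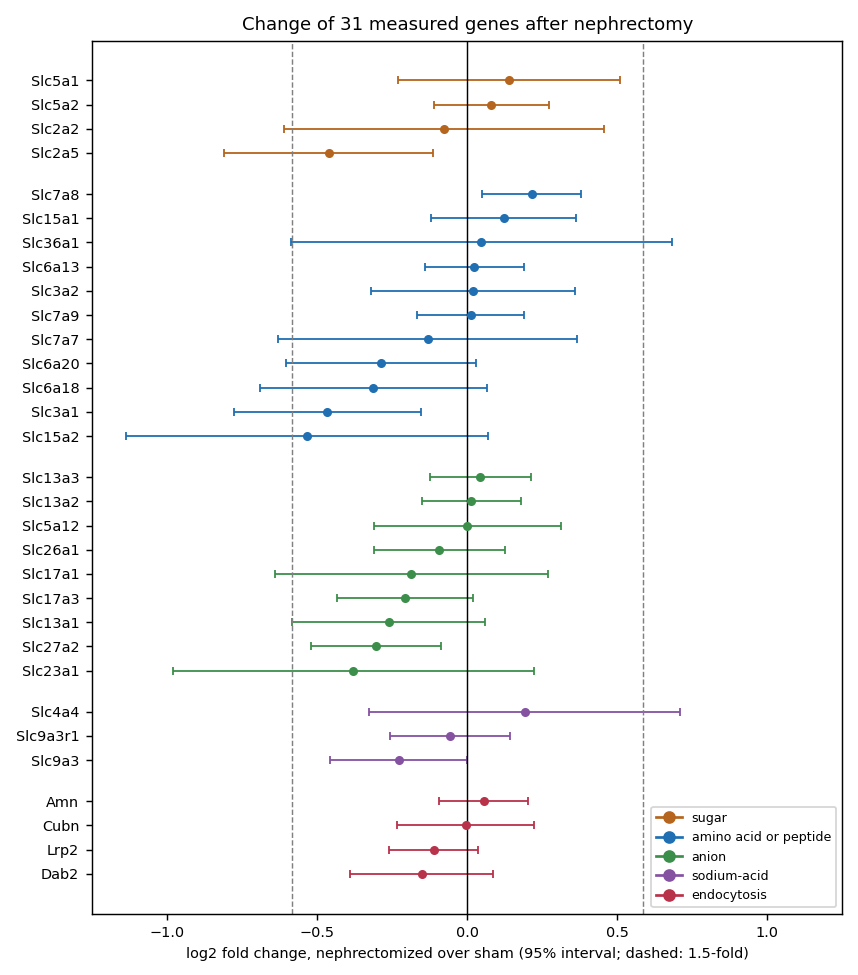
Log2 fold change of the 31 measured genes, nephrectomized over sham (x axis), with 95% intervals from limma, grouped by role (colours), 4 rats per group except 3 sham rats for Slc23a1. All but 4 intervals (Slc7a8, Slc3a1, Slc27a2 and Slc2a5) include 0, and 20 lie between the dashed lines at 1.5-fold.

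The sugar carriers showed no called change. Slc5a2, the sodium-glucose cotransporter of the early proximal tubule and the target of the gliflozin drugs, had log2 levels of 6.97, 7.07, 7.20 and 7.32 in nephrectomized rats 1 to 4, against 6.99, 7.03, 7.10 and 7.11 in sham rats 1 to 4. The groups overlapped, with rats 3 and 4 after nephrectomy above every sham rat and rat 1 below them all, and the fold change was 1.06 (95% interval 0.925 to 1.21, adjusted p = 0.679). A second Slc5a2 probe gave a log2 fold change of 0.01. Slc5a1, the high-affinity cotransporter of the late segment, had log2 levels of -2.20, -2.75, -2.31 and -2.68 in nephrectomized rats, against -2.50, -2.41, -2.62 and -2.97 in sham rats. Its values were interleaved between the groups, at a fold change of 1.10 (0.853 to 1.42, adjusted p = 0.716).

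Among the facilitative sugar carriers, Slc2a2, the basolateral glucose exit carrier GLUT2, had a fold change of 0.948 (0.655 to 1.37, adjusted p = 0.904) and a log2 fold change of -0.11 on a second probe. Slc2a5, the fructose carrier GLUT5, had log2 levels of 2.48, 1.99, 2.13 and 1.90 in nephrectomized rats, against 2.33, 2.74, 2.82 and 2.45 in sham rats. Nephrectomized rats 2, 3 and 4 lay below every sham rat and rat 1 lay above sham rats 1 and 4. The fold change of Slc2a5 was 0.726 (0.570 to 0.925, adjusted p = 0.156), with log2 fold changes of -0.30 on slide 1 and -0.62 on slide 2. Side by side, the log2 fold changes of the 4 sugar carriers were 0.08 for Slc5a2, 0.14 for Slc5a1, -0.08 for Slc2a2 and -0.46 for Slc2a5, and the differences among them were not tested.

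The amino acid and peptide carriers included both genes whose groups did not overlap. Slc3a1, the heavy chain rBAT that brings the cystine and dibasic amino acid exchanger to the brush border, had log2 levels of 6.63, 6.18, 6.58 and 6.19 in nephrectomized rats, against 6.63, 6.96, 7.04 and 6.81 in sham rats. Every nephrectomized rat was lower than every sham rat, though the highest of them, rat 1 at 6.632, lay next to sham rat 1 at 6.634. The fold change of Slc3a1 was 0.724 (0.583 to 0.899, adjusted p = 0.115). Its light chain partner Slc7a9, b0,+AT, gave a fold change of 1.01 (0.891 to 1.14, adjusted p = 0.958). Mutations of either gene cause cystinuria in people, and the 2 subunits act as a pair, and their log2 fold changes were -0.47 for Slc3a1 and 0.01 for Slc7a9, a difference that was not tested.

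Slc7a8, the light chain LAT2 of the basolateral neutral amino acid exchanger, was the one gene with every nephrectomized rat above every sham rat, at log2 levels of 2.78, 2.70, 2.92 and 2.87 in nephrectomized rats, against 2.51, 2.56, 2.64 and 2.70 in sham rats. The gap was small, with nephrectomized rat 2 at 2.702 next to sham rat 4 at 2.698. The fold change of Slc7a8 was 1.16 (1.03 to 1.30, adjusted p = 0.163), with log2 fold changes of 0.20 on slide 1 and 0.23 on slide 2. Of all genes with a value in every rat, 7.59% were higher without overlap and 5.09% lower, against 1 gene in each direction (3.33%) of the 30 with a value in every rat. Slc7a7, the light chain y+LAT1 that exports dibasic amino acids to the blood, gave 0.913-fold (0.646 to 1.29), and Slc3a2, the heavy chain 4F2hc that both light chains share, gave 1.01-fold (0.800 to 1.28).

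Of the sodium-coupled amino acid carriers, Slc6a20, the imino acid carrier that transports proline, had log2 levels of 1.60, 1.61, 2.00 and 1.56 in nephrectomized rats, against 1.63, 2.11, 2.08 and 2.09 in sham rats. Each group held 1 rat apart from the other 3, rat 3 after nephrectomy and rat 1 after sham operation, and the fold change was 0.820 (0.659 to 1.02, adjusted p = 0.333). Slc6a18, the neutral amino acid carrier of the late segment, gave 0.805-fold (0.619 to 1.05, adjusted p = 0.379), with log2 levels from 3.28 to 4.07 in nephrectomized rats and from 3.72 to 4.14 in sham rats. Its early-segment counterpart Slc6a19 was not analysed here. Slc6a13, a carrier of GABA and taurine, gave 1.02-fold (0.907 to 1.14), and the proton-coupled carrier Slc36a1, whose sham rats spread from -3.26 to -1.82, gave 1.03-fold (0.666 to 1.60).

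The peptide carriers are a pair of the same kind, with Slc15a1 (PEPT1) of low affinity in the early segment and Slc15a2 (PEPT2) of high affinity in the late one. Slc15a2 had log2 levels of 1.52, 0.58, 1.10 and 0.49 in nephrectomized rats, against 1.05, 1.70, 1.86 and 1.21 in sham rats. Nephrectomized rats 2 and 4 lay below every sham rat while rats 1 and 3 lay among them, and the fold change was 0.691 (adjusted p = 0.343). Slc15a1 ran from 2.01 to 2.42 in nephrectomized rats and from 1.84 to 2.14 in sham rats, at 1.09-fold (0.919 to 1.29, adjusted p = 0.612).

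**Figure D2:**
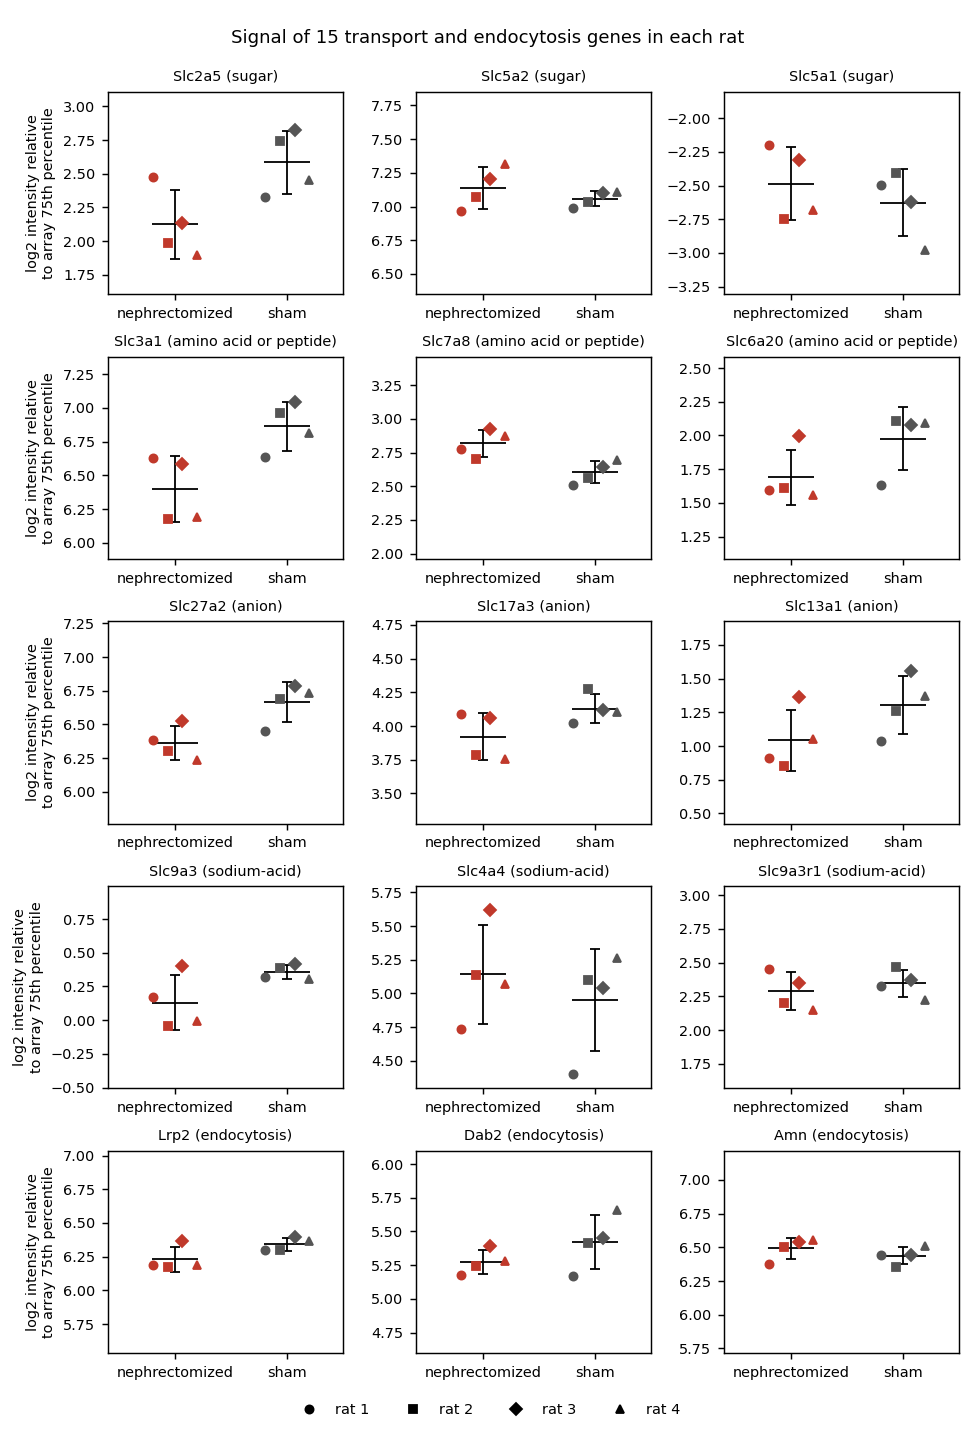
Log2 intensity relative to the array's 75th percentile (y axis, the same height of scale in each panel) in every rat, for the 3 genes of each role with the smallest p, nephrectomized on the left (red) and sham on the right (grey), with marker shapes for rat number and bars for the mean and SD of 4 rats. The groups are separate for Slc3a1 and Slc7a8 and overlap in the other 13 panels.

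Anion carriers had a median log2 fold change of -0.19 over 9 measured genes, 6 of them negative. Slc27a2, a fatty acid carrier that is also a very long chain acyl-CoA synthetase, had log2 levels of 6.39, 6.30, 6.52 and 6.24 in nephrectomized rats, against 6.45, 6.69, 6.79 and 6.74 in sham rats. Only sham rat 1 reached into the range of the nephrectomized rats, below their rat 3. The fold change of Slc27a2 was 0.810 (0.698 to 0.941, adjusted p = 0.132), a second probe gave a log2 fold change of -0.31 against -0.30 on the first, and without sham rat 1 the adjusted p was 0.0542.

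Slc17a3 and Slc17a1, apical carriers of urate and other organic anions, gave 0.866-fold (0.740 to 1.01, adjusted p = 0.323) and 0.879-fold (0.641 to 1.20, adjusted p = 0.685). For Slc17a3 the log2 levels were 4.09, 3.78, 4.06 and 3.76 in nephrectomized rats, against 4.02, 4.27, 4.12 and 4.11 in sham rats, so that rats 2 and 4 after nephrectomy lay below every sham rat. Slc13a1, the apical sodium-sulfate cotransporter, had log2 levels of 0.91, 0.85, 1.36 and 1.05 in nephrectomized rats, against 1.04, 1.26, 1.55 and 1.37 in sham rats, at 0.834-fold (0.667 to 1.04, adjusted p = 0.386). Its groups overlapped through nephrectomized rats 3 and 4, and a second probe gave a log2 fold change of -0.16. The sulfate exchanger of the basolateral side, Slc26a1, gave 0.938-fold (0.806 to 1.09).

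The dicarboxylate carriers showed no called change. Slc13a2, which takes up citrate and succinate at the brush border, gave 1.01-fold (0.902 to 1.13) and the same log2 fold change of 0.01 on both of its probes, and its basolateral relative Slc13a3 gave 1.03-fold (0.917 to 1.16). Slc5a12, the low-affinity lactate cotransporter of the early segment, gave 1.00-fold (0.806 to 1.24), with log2 fold changes of -0.26 on slide 1 and 0.26 on slide 2. Its high-affinity counterpart Slc5a8 was not analysed here. Slc23a1, which takes up ascorbate, had log2 levels of 2.91, 2.54, 2.77 and 1.88 in nephrectomized rats, against 2.56, 3.00 and 3.15 in sham rats 1 to 3, and the spot of sham rat 4 was marked as an outlier and left out of the fit. Its log2 fold change of -0.38 (0.769-fold, 0.507 to 1.17, adjusted p = 0.504) was 0.54 in the deposited table, which has a value for all 8 rats.

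The sodium-acid genes couple sodium uptake to acid secretion and bicarbonate recovery. Slc9a3, the brush border sodium-proton exchanger NHE3, had log2 levels of 0.17, -0.04, 0.40 and -0.01 in nephrectomized rats, against 0.32, 0.39, 0.42 and 0.31 in sham rats. Nephrectomized rats 1, 2 and 4 lay below every sham rat and rat 3 lay among them, and the log2 fold change of -0.23 (SE 0.10, 95% interval -0.46 to 0.00) did not pass (adjusted p = 0.284). Slc9a3r1, the scaffold NHERF1 that holds the exchanger at the membrane, had log2 levels of 2.46, 2.20, 2.35 and 2.15 in nephrectomized rats, against 2.32, 2.47, 2.37 and 2.22 in sham rats, at 0.960-fold (0.836 to 1.10, adjusted p = 0.792). Slc4a4, the basolateral sodium-bicarbonate cotransporter NBCe1, had 4.73, 5.14, 5.62 and 5.07 in nephrectomized rats, against 4.40, 5.10, 5.04 and 5.27 in sham rats. In both groups rat 1 was the lowest for Slc4a4, and its log2 fold change of 0.19 (adjusted p = 0.722) was 0.01 without sham rat 1.

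The 4 endocytosis genes all had 95% intervals within 1.5-fold, as did 82.4% of all genes. Lrp2, which encodes megalin, had log2 levels of 6.19, 6.17, 6.37 and 6.19 in nephrectomized rats, against 6.30, 6.30, 6.40 and 6.37 in sham rats. Nephrectomized rats 1, 2 and 4 lay below every sham rat, and the fold change was 0.925 (0.835 to 1.03, adjusted p = 0.427). Cubn, which encodes cubilin, gave 0.996-fold (0.850 to 1.17, adjusted p = 0.986), and Amn, the anchor that carries cubilin to the membrane, had log2 levels of 6.38, 6.50, 6.54 and 6.55 in nephrectomized rats, against 6.44, 6.36, 6.45 and 6.51 in sham rats (1.04-fold, 0.938 to 1.15, adjusted p = 0.721). Dab2, the adaptor that links megalin to clathrin, had 5.18, 5.25, 5.39 and 5.28 in nephrectomized rats, against 5.17, 5.41, 5.45 and 5.66 in sham rats. The nephrectomized values of Dab2 lay within the range of the sham values, at 0.900-fold (0.763 to 1.06, adjusted p = 0.505).

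Sham rat 1 bore on which groups overlapped. With it, 1 of the 30 genes with a value in every rat was lower in every nephrectomized rat. Without it there were 5 of 30 (16.7%), Slc3a1, Slc6a20, Slc17a3, Slc27a2 and Dab2, against 8.98% of all genes, and none passed an adjusted p of 0.05. In the higher direction it stayed at 1 of 30 (3.33%), Slc7a8, against 11.2% of all genes. Leaving out a rat can only add to such counts, and sham rat 1 was the lowest sham rat in 20 of these 30 genes. Slc23a1, with only sham rats 2 and 3 left, was not counted. Log2 fold changes also moved by more than 1.5 times. Without sham rat 1, that of Slc2a2 was -0.25, of Slc7a7 -0.23, of Slc17a1 -0.33, of Dab2 -0.24 and of Cubn -0.08. Slc4a4 was at 0.01, Slc15a1 at 0.05, Slc6a13 at 0.08, Slc13a3 at 0.08, Slc13a2 at 0.02 and Slc5a12 at 0.01, and the sign turned for Slc7a9 (-0.03) and Slc3a2 (-0.05). None of these genes was called with or without that rat. When limma weighted the arrays by their quality, 5 genes fell past the threshold (16.1%, against 5.23% of all genes): Slc3a1 by 0.64, Slc2a5 by 0.63, Slc6a20 by 0.43, Slc27a2 by 0.42 and Slc9a3 by 0.33 on the log2 scale, with adjusted p from 0.0110 to 0.0319. That weighting called 2351 genes in all, against 714 without it. In either direction these were 11.8% of all genes with the weights, against 16.1% of the 31, all of them lower.

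Other genes of the same functions, together with transcription factors of the proximal tubule, made up 103 genes in 7 lists. Of the 81 measured, none rose and 1, a transcription factor, fell (1.23%, against 3.59% of all genes). At an unadjusted p under 0.05 there were 21 (25.9%, against 17.7% of all genes), 7 higher and 14 lower after nephrectomy, and the median log2 fold change was -0.06. The lists' medians were -0.11 for sugar and small solute carriers (8 measured), -0.14 for amino acid and peptide carriers (12), -0.10 for brush border structure (11), 0.03 for endocytosis and recycling (24), -0.02 for acid-base enzymes and the basolateral pump (11) and -0.05 for transcription factors (7). The brush border hydrolases, most of which split peptides before their uptake, had the lowest median, -0.42, and all 8 measured genes were negative without passing the test. Among them Anpep, aminopeptidase N, had log2 levels of 4.53, 4.06, 4.56 and 3.97 in nephrectomized rats, against 4.76, 4.82, 4.75 and 4.68 in sham rats (0.720-fold, 0.577 to 0.900, adjusted p = 0.119). Its groups did not overlap, and neither did those of the phosphatase Alpl (0.870-fold, 0.770 to 0.981, adjusted p = 0.214). These were 2 of the 8 hydrolases, and 5.09% of all genes with a value in every rat were lower without overlap. Mme, neprilysin, had 3.62, 2.96, 3.47 and 2.71 in nephrectomized rats, against 3.53, 4.27, 4.24 and 3.86 in sham rats, with overlap only at sham rat 1 (0.580-fold, 0.398 to 0.843, adjusted p = 0.123).

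**Figure D3:**
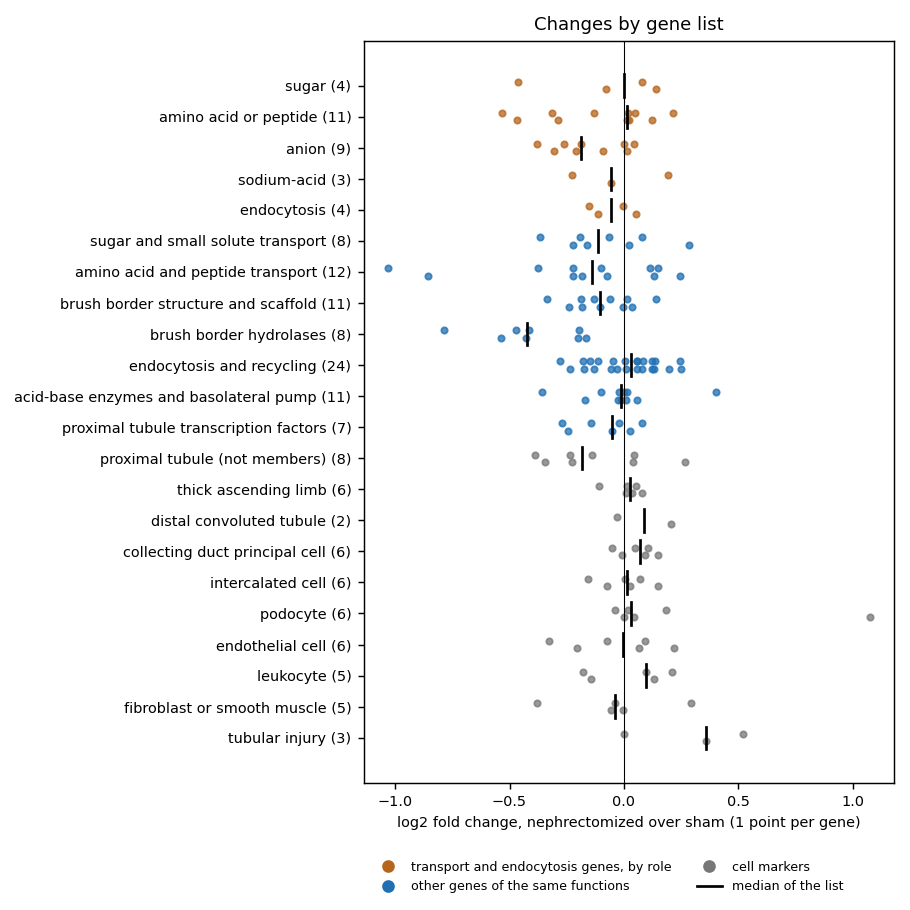
Log2 fold change, nephrectomized over sham (x axis), with 1 point per measured gene and a black bar at each list's median. Shown are the 5 roles of transport and endocytosis genes (brown), 7 lists of other genes (blue) and 10 lists of cell markers (grey). The blue lists hold other genes of the same functions and proximal tubule transcription factors. Most points lie near 0, and the brush border hydrolases are all on the negative side with a median of -0.42.

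Of those other genes, the 1 that fell was Hnf4a, and no gene of the carrier, brush border, endocytosis and acid-base lists was called. Hnf4a, listed with the transcription factors, is a nuclear receptor that drives the differentiation of the proximal tubule. Its log2 levels were 4.22, 4.19, 4.23 and 4.20 in nephrectomized rats, against 4.48, 4.49, 4.47 and 4.47 in sham rats, so that the groups lay apart with no overlap. Hnf4a fell by 0.27 on the log2 scale (SE 0.05, 0.830-fold, 95% interval 0.768 to 0.897, adjusted p = 0.0236), and each slide alone gave the same direction (-0.28 for slide 1, -0.26 for slide 2, log2). Significance was lost when nephrectomized rat 2 or 4 or sham rat 2, 3 or 4 was left out (adjusted p 0.0677 to 0.0877), on the mean of its probes (log2 fold change -0.31, adjusted p = 0.0682), with a replicate block (0.0935) and when dim probes were kept (0.138).

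The promoters of the transport and endocytosis genes were searched on both strands for a core of the HNF4 binding site, AAAGTCC. A half-site of HNF1, GTTAAT, was planned as well but is not reported here. Any link between the core and the fall of Hnf4a was not tested. Promoters (RefSeq, build GRCr8, 250 bases before to 50 after the start) were on hand for 33 of the 36 genes. The HNF4 core stood in 3 of them, those of Slc3a1, Slc5a1 and Slc23a1, or 9.09%, against 4.63% of 27457 promoters. A match describes these letters alone and shows no binding. These 3 promoters are printed to show where the core lies, 5′ to 3′ on the gene's strand, with the match in capitals (GGACTTT is the reverse complement).
Slc3a1 (chr6:15394700-15394999, minus strand): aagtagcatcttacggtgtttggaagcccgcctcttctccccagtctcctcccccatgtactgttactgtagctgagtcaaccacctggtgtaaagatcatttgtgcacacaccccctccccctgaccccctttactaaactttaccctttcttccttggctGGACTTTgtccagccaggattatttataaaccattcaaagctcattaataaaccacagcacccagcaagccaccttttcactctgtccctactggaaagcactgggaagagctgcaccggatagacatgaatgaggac
Slc5a1 (chr14:81843035-81843334, minus strand): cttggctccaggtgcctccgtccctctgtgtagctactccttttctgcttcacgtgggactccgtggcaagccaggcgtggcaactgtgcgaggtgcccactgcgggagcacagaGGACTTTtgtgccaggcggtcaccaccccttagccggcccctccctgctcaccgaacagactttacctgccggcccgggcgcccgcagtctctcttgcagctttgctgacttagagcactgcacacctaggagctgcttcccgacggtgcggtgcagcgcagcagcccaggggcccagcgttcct
Slc23a1 (chr18:27502436-27502735, minus strand): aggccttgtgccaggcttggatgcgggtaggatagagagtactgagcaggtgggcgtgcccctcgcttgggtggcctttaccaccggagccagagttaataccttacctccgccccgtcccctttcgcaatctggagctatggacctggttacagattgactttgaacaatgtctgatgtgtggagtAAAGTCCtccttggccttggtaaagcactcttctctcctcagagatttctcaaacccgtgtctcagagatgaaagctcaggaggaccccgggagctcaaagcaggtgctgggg
The genes that share the HNF4 core had log2 fold changes of -0.47 (Slc3a1), 0.14 (Slc5a1) and -0.38 (Slc23a1), none of them called. In Slc3a1 the match began 88 bases before the start, in Slc5a1 135 and in Slc23a1 63.

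Markers outside the set were examined for shifts in cell makeup. Of 8 measured proximal tubule markers, Miox, the myo-inositol oxygenase specific to this segment, was 0.787-fold (0.712 to 0.871, adjusted p = 0.0244) and so fell, with log2 levels of 7.21, 7.23, 7.27 and 7.06 in nephrectomized rats, against 7.57, 7.47, 7.54 and 7.56 in sham rats. The mean of the 8 relative to the sham mean was -0.20 to -0.07 in nephrectomized rats and -0.08 to 0.03 in sham rats, and their median log2 fold change was -0.18. Of the 8, 5 were negative and 3 positive, with log2 fold changes of 0.27 for Gatm, the first enzyme of creatine synthesis (adjusted p = 0.186), 0.04 for Fbp1 and 0.04 for Acmsd. Besides Miox, the negative ones were Keg1 (-0.39), Acy3 (-0.23), Khk (-0.23) and Hao2 (-0.14), none of them called. Without sham rat 1, Keg1 passed the threshold (log2 fold change -0.51, adjusted p = 0.0375). Medians were 0.02 for the thick ascending limb (6 measured), 0.09 for the distal convoluted tubule (2), 0.07 for principal cells (6), 0.02 for intercalated cells (6), 0.03 for podocytes (6), 0.00 for endothelial cells (6), 0.09 for leukocytes (5) and -0.04 for fibroblasts or smooth muscle (5), with no gene called. The mean level of the leukocyte markers relative to the sham mean was -0.05 to 0.09 in nephrectomized rats and -0.01 to 0.02 in sham rats, and that of fibroblasts or smooth muscle was -0.15 to 0.12 in nephrectomized rats and -0.25 to 0.17 in sham rats. For podocytes it was 0.02 to 0.31 in nephrectomized rats and -0.66 to 0.36 in sham rats, where Nphs1, which encodes nephrin, was at a log2 level of -3.33 in sham rat 3 and at 1.38 to 1.68 in the other sham rats. Of 3 measured injury markers, Spp1, which encodes osteopontin, rose 1.43-fold (1.22 to 1.68, adjusted p = 0.0293), with log2 levels of 2.99, 2.89, 3.08 and 3.26 in nephrectomized rats, against 2.39, 2.72, 2.49 and 2.55 in sham rats. The other measured injury markers were not called, Krt18 at 1.28-fold (1.08 to 1.52, adjusted p = 0.127) and Clu at 1.00-fold (0.862 to 1.16, adjusted p = 0.999). Havcr1, Lcn2 and Krt20 did not pass the filter on dim probes. Both calls were lost when dim probes were kept (adjusted p = 0.123 for Miox and 0.122 for Spp1), and with a replicate block (0.0895 for Miox and 0.0940 for Spp1). Leaving out nephrectomized rat 1, 2 or 4 or sham rat 2, 3 or 4 also lost the call of Miox (adjusted p up to 0.0845), and leaving out nephrectomized rat 1, 3 or 4 or sham rat 1, 3 or 4 lost that of Spp1 (up to 0.0980). The part of these marker shifts in the values of the transport genes was not tested.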

How the data were processed

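Total RNA of each rat's kidney was labelled with Cy3 and hybridised to 1 array, per the labels' protocols. The authors extracted the arrays with Agilent Feature Extraction 10.5.1.1 (protocol GE1_105_Dec08, design 014879, annotation build rn4), per the file headers, and the deposited processed intensity is background-subtracted and detrended but not normalized between arrays. A deposited table of 30448 probes in log2 units served as an alternative. It correlated at 1.00 (r) with the log2 values computed here after centring on each probe's median.

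Log2 intensities were averaged over spots without outlier marks, the 75th percentile of the gene probes was subtracted array by array, and a probe stayed in if every array of 1 or both groups had it well above background (in a share of 0.5 or more of its spots). Probes were named through RefSeq accessions (assembly GRCr8), and the brightest probe per gene was used, which left 19865 genes. Slc9a3r1 and Slc6a20 were matched through older names. The marker Keg1 was matched in the same way, to the gene now named Glyatl2. The 5 genes with a pair of probes agreed in sign between probes. The comparison used limma 3.58.1 (R 4.3.3), two-sided, with Benjamini-Hochberg adjustment over all genes at 0.05, and the code was tested on simulated data. The genes and lists were chosen by function with earlier results of these data known. Values by rat are given for the 3 genes of each role with the smallest p and for Slc15a2, Slc23a1 and some of the genes named from other lists, chosen after their values were seen. The labels name separate samples but not litters or extraction days, and the number of arrays limits the precision. Alternatives were other scalings, normexp (offset 50, on the median signals, since no mean signal was in the files), the deposited table, other filters and probe rules, an intensity trend, array weights, slide or replicate number as a block, single slides, a threshold of 0.01 and each rat left out. Some genes of the other lists are not reported here by name. Same-numbered rats did not deviate together (r from -0.02 to 0.10).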

Additional observations from a re-analysis of the deposited data

Results flagged for a closer look

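In Slc6a20, nephrectomized rat 3 (log2 level 2.00) stood apart from the other 3 nephrectomized rats, the nearest of which was at 1.61, and sham rat 1 (1.63) stood apart from the other sham rats, the nearest at 2.08. The log2 fold change of -0.29 was -0.39 without nephrectomized rat 3 and -0.40 without sham rat 1. In Lrp2, nephrectomized rat 3 (6.37) stood apart from the others, the nearest at 6.19, and the log2 fold change of -0.11 was -0.16 without it. Each stood out by a gap above Dixon's 95% critical value for 4 samples, which chance gives in about 1 group in 20, and 67 groups were examined.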

How the results depend on the processing

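No transport or endocytosis gene was called under 20 of the 21 alternatives (limma, adjusted p), and 5 were called lower with array weights. Over these 21 alternatives and the other probe of 5 genes, 39 of 654 values changed sign (Slc23a1 had no value under 2 of them), in 12 genes whose log2 fold changes were not called. Under quantile normalization these were Slc7a9 (-0.016) and Slc13a3 (-0.031), under normexp Slc3a2 (-0.016) and Cubn (0.013), in the deposited table Slc23a1 (0.54), and with array weights Slc7a9 (-0.031), Slc3a2 (-0.099) and Slc13a2 (-0.018). Within slide 1 they were Slc5a1 (-0.022), Slc3a2 (-0.037), Slc6a13 (-0.015), Slc5a12 (-0.26), Slc13a2 (-0.0020) and Cubn (0.042), and within slide 2 Slc36a1 (-0.16) and Slc13a3 (-0.010). Leaving out each rat in turn gave ranges that crossed 0 for Cubn (-0.081 to 0.052), Slc13a2 (-0.022 to 0.062), Slc2a2 (-0.28 to 0.033), Slc36a1 (-0.15 to 0.33), Slc3a2 (-0.12 to 0.085), Slc5a12 (-0.13 to 0.094), Slc6a13 (-0.0094 to 0.077), Slc7a7 (-0.33 to 0.0049) and Slc7a9 (-0.033 to 0.057). The causes of these changes were not tested. Over all genes, 511 were called higher and 203 lower. Counts were 244 and 38 when dim probes were kept, 1313 and 1038 with array weights, 0 and 0 within slide 1, 137 and 4 within slide 2, where fewer arrays enter, and 227 and 33 at a threshold of 0.01. With each rat left out, 280 to 497 were called higher and 57 to 223 lower. Among the other genes of the same functions and the transcription factors (0 higher, 1 lower), 1 was higher under quantile normalization, on the mean of a gene's probes and with slide as a block. With an intensity trend 3 were higher, and with array weights 6 were higher and 13 lower. None was lower without the filter, on the mean of a gene's probes, within slide 1, within slide 2 or at 0.01, and 0 to 2 were lower with each rat left out. With the replicate number as a block, 243 genes were called higher and 53 lower, 0 of the other genes of the same functions and 0 of the 31. Rats of the same number share only that number. The other probe of 5 genes and the overlap without sham rat 1 were chosen after seeing the data. The median over the 31 genes ran from -0.16 to -0.03 with each rat left out. The arrays' number limits the precision, and dim probes limit the injury markers.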

Other observations

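Within the nephrectomized group, rats 2 and 4 both lay below rats 1 and 3 in 12 of the 30 transport and endocytosis genes with a value in every rat (40.0%), among them Slc3a1, Slc15a2 and Slc17a3, and in 22.2% of all genes. The same order held in 7 of the 8 measured brush border hydrolases (87.5%), such as Mme and Anpep. Slc7a13, an amino acid carrier of the late segment in mice, had log2 levels of 4.25, 2.99, 3.77 and 2.72 in nephrectomized rats 1 to 4, against 3.87, 4.82, 4.93 and 4.24 in sham rats 1 to 4 (0.490-fold, 95% interval 0.275 to 0.873, adjusted p = 0.182 by limma), again lowest in rats 2 and 4. This order was noticed in the data and was not tested.

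Among the other genes of the same functions, the monocarboxylate carrier gene Slc16a7 and the creatine carrier gene Slc6a8 lay nearest the threshold on the higher side, with log2 fold changes of 0.28 (adjusted p = 0.0622) and 0.24 (adjusted p = 0.0549). Slc16a7 had log2 levels of 4.25, 4.37, 4.41 and 4.38 in nephrectomized rats, against 4.01, 3.99, 4.08 and 4.19 in sham rats. Slc6a8 had 7.40, 7.49, 7.40 and 7.51 in nephrectomized rats, against 7.24, 7.23, 7.17 and 7.18 in sham rats. Both had every nephrectomized rat above every sham rat, as did 7 of the 81 measured genes of these lists. Of all genes with a value in every rat, 7.59% did so.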
